A study of Drosophila melanogaster with 12 samples.

Results

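This report describes the places where the elongating form of RNA Polymerase II (Pol II), which carries phosphate on serine 2 (S2), was called upon depletion of LaminB and in no mock library. They were found by a rule that used the called regions themselves. Every region of either LaminB KD list that touched no region of either mock list by 1 bp was kept, and kept regions that touched each other were merged. The rule kept 168 of the 7309 regions of LaminB KD replicate 1, which is 2.30%, and 161 of the 7122 regions of LaminB KD replicate 2, which is 2.26%. After merging, 284 regions remained, beside 7643 merged LaminB KD regions in all. Of these 7643, 281 touched no mock region (3.68%). The other 3 of the 284 overlapped a region of the second LaminB KD list that did touch mock. Because the LaminB KD and mock lists chose these regions, their presence in one and absence from the other is a description and was given no test.

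The study measured S2 Pol II by chromatin immunoprecipitation followed by sequencing (ChIP-seq) in Kc167, a *Drosophila melanogaster* cell line of embryonic hemocyte origin. The LaminB KD cells received dsRNA against LaminB, the AGO2 KD cells received siRNA against Argonaute2, and the mock cells were transfected with neither. All were collected 3 days after transfection, and each group had 2 IP libraries with inputs. All 3 groups were the same cell line, and the reagent that depletes a protein was itself added only to the KD cells, so any effect of the reagent cannot be told apart from that of the depletion. No source used here says that the replicates came from separate cultures, and sequencing depth is unknown because the deposited lists hold no counts.

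The lists held 7309 and 7122 regions in LaminB KD, 4122 and 6534 in AGO2 KD, and 7795 and 7957 in mock. Each region carries a fold enrichment, the ratio of IP signal to the background expected from input, and a −log10 q, which grows as the call becomes surer. AGO2 KD replicate 1 stood apart, with the fewest regions and a median −log10 q of 2.71 among its regions that touched mock, although their median fold was 3.54. In AGO2 KD replicate 2 these medians were 4.06 and 3.01. Of 13 hemocyte genes listed as markers, 8 had a called region in both LaminB KD libraries, 7 in both AGO2 KD libraries and 8 in both mock libraries, while *eater*, *NimC1*, *PPO1*, *PPO2* and *lz* had none in any list. Of the markers of other cells, *Mhc*, *Lsp2* and *Adh* had no region in any list, whereas *elav* and *vas* were covered in all 6. The share of all genes called in both libraries of a group is not given here, so these counts do not say whether hemocyte genes stood out. *Lam*, the gene of LaminB, was covered over 82.3% and 79.4% of its length in LaminB KD, 24.6% and 77.6% in AGO2 KD, and 85.5% and 83.1% in mock. Depletion by dsRNA acts on the transcript, so Pol II on this gene does not check the knockdown.

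B-type lamins form a meshwork under the inner nuclear membrane, and in flies LaminB lines the nucleus of nearly every cell type. Chromatin that lies against this meshwork is mostly poor in active genes and forms long domains. Serine 2 of the C-terminal repeats of Pol II is phosphorylated as the enzyme moves into productive elongation along transcribed genes.

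The sequences of 4 of the regions called in both LaminB KD lists are given here because they stand for kinds of place described below. These are a place inside a gene near a mock region (*Dronc*) and a gene on chromosome 4 (*PlexA*). The others are an intron (*Atf3*) and an intron also called in AGO2 KD (*stx*). The *Dronc* region lay within 1500 bp of a start site and is counted as promoter below. They were read from the RefSeq copy of the dm6 genome, on the plus strand, and capitals mark the stretch that was called in both LaminB KD lists. The positions are chr3L:9970380-9970608 for *Dronc*, chr4:1022820-1023109 for *PlexA*, chrX:1253077-1253277 for *Atf3* and chrX:10738939-10739145 for *stx*.
Dronc: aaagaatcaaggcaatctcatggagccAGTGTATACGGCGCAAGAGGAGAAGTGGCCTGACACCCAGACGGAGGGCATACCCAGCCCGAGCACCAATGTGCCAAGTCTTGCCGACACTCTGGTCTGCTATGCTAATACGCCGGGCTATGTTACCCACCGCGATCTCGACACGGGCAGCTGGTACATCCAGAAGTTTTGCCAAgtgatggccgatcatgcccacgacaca
PlexA: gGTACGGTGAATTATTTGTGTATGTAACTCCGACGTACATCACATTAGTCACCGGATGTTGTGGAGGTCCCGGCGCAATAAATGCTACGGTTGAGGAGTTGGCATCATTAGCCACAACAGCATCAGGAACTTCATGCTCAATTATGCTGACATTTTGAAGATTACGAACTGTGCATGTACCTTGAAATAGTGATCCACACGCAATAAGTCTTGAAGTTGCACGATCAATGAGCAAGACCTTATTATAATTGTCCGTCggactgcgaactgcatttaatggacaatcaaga
Atf3: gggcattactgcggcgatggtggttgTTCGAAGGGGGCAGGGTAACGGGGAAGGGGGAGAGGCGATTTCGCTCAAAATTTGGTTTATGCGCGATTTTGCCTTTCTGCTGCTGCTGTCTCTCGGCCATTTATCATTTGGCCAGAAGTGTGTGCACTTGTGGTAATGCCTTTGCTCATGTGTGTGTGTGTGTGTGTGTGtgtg
stx: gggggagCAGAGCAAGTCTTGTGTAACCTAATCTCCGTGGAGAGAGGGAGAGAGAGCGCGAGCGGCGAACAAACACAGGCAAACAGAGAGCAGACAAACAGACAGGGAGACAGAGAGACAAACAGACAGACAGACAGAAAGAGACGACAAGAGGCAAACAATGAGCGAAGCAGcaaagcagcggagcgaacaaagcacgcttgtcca
GAGAG or its complement CTCTC, counted without overlaps, occurs 4 times in the *stx* region, 2 times in *Atf3* and not in *Dronc* or *PlexA*. GC content was 55.9% in the *Dronc* region, 42.8% in *PlexA*, 52.2% in *Atf3* and 53.1% in *stx*.

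The first question was whether the 2 LaminB KD libraries named the same places. Of the 284 regions, 44 were built from kept regions of both LaminB KD lists (15.5%), 124 from kept regions of replicate 1 and 116 from kept regions of replicate 2. Here and below, regions called in both lists are these 44 and regions called in 1 list are the other 240, of which 3 were also overlapped by a region of the other LaminB KD list that reached a mock region. Beside this, 6119 of all 7643 merged LaminB KD regions were in both lists (80.1%), and among those narrower than 400 bp the share was 49.6%. In 36 of the 44, the stretch called in both lists took up 50% or more of the merged region.

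A part of this can be set on libraries that the choice did not use. Regions were chosen in 1 LaminB KD library where they were absent from 1 mock library, and were then looked up in the 2 libraries left over. Of 325 regions of LaminB KD replicate 1 absent from mock replicate 1, 106 were touched in LaminB KD replicate 2 (32.6%) and 157 in mock replicate 2 (48.3%), a difference of −15.7 percentage points. Of 340 regions of LaminB KD replicate 1 absent from mock replicate 2, 32.9% were touched by the other LaminB KD list and 50.6% by the other mock list. For LaminB KD replicate 2, the shares were 32.7% and 49.8% over 321 regions absent from mock replicate 1, and 38.2% and 46.5% over 301 regions absent from mock replicate 2. In all 4 choices, the other mock library touched more of the chosen regions than the other LaminB KD library did. The choices share lists and are not independent. The mock lists are also longer (7795 and 7957 regions) than the LaminB KD lists (7309 and 7122). The part of list size in these shares was not tested.

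The same look-up in the other direction gave a different order. Between 1557 and 1742 regions were present in 1 mock library and absent from 1 LaminB KD library. The other LaminB KD list touched 22.1% to 30.2% of them and the other mock list 59.0% to 64.3%. These regions were thus found more often in the group they were chosen in, which is also the group with the longer lists.

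**Figure D1:**
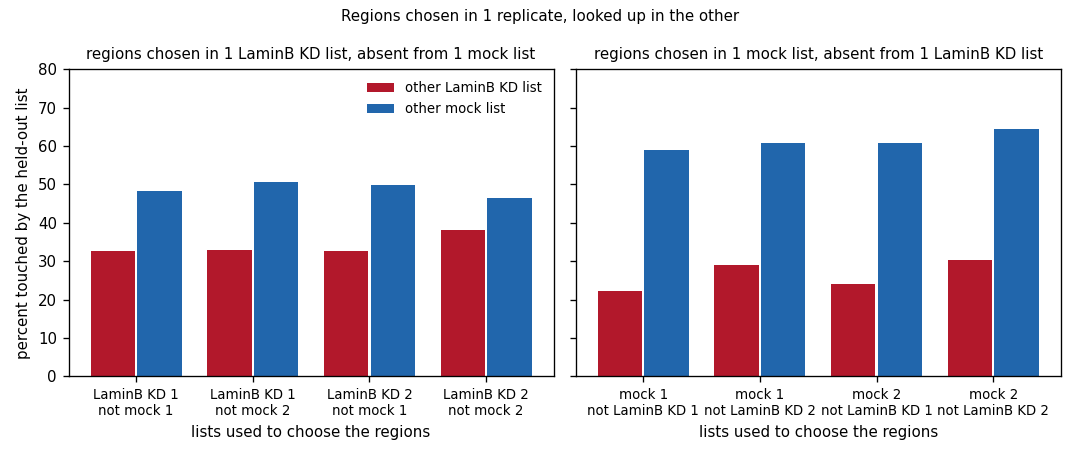
Percent of regions touched by each library left out of the choice. Left, regions chosen in 1 LaminB KD list and absent from 1 mock list; right, regions chosen in 1 mock list and absent from 1 LaminB KD list. Red bars stand for the other LaminB KD list and blue bars for the other mock list. The blue bars are higher in all 8 choices, from 46.5% to 50.6% on the left and from 59.0% to 64.3% on the right.

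Calls in the other direction were also more numerous. Mock replicate 1 had 1238 regions that touched no LaminB KD region (15.9%) and mock replicate 2 had 1184 (14.9%), against 168 (2.30%) and 161 (2.26%) for LaminB KD outside mock. The mock regions merged to 1854, of which 556 were in both mock lists (30.0%), beside 81.2% of all merged mock regions. The LaminB KD regions outside mock covered 88829 bp in all and the mock regions outside LaminB KD 882491 bp.

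The regions outside mock were weak and narrow calls. In LaminB KD replicate 1 their fold enrichment ran from 1.76 to 3.30 with a median of 2.21, while regions that touched mock had a median of 2.74 and reached 9.10. In replicate 2 the range was 1.70 to 3.37 with a median of 2.13, while regions that touched mock had a median of 2.66 and reached 8.29. Their median −log10 q was 1.76 and 1.82 in the 2 replicates, and 5.25 and 5.52 in regions that touched mock. The lowest −log10 q in any list was 1.01.

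When each list was ordered by −log10 q and cut into 4 equal parts, the lowest part of the LaminB KD replicate 1 list held 132 of its 168 regions outside mock and the highest part none. In replicate 2 the lowest part held 129 of 161 and the highest none. The merged regions had a median width of 233.5 bp, from 147 to 1980 bp, and the narrowest region in any of the 6 lists was also 147 bp. Of the 284, 220 were narrower than 400 bp (77.5%), while this held for 24.4% of the merged LaminB KD regions that touched mock, whose median width was 895 bp. Mock regions outside LaminB KD were also weak, with median folds of 1.99 and 1.97 and a median merged width of 323 bp.

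**Figure D2:**
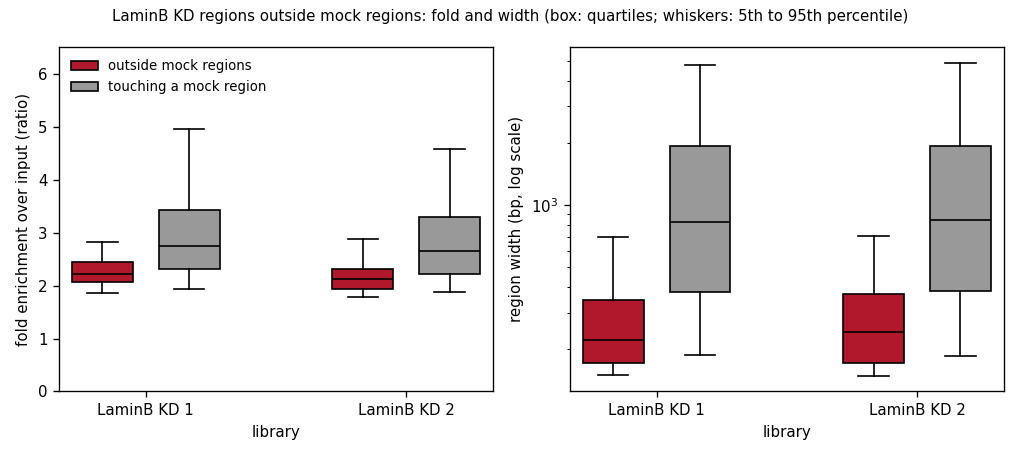
Fold enrichment over input (left, linear scale) and width in bp (right, log scale) of the regions of each LaminB KD list. Red boxes are regions outside mock (n = 168 and 161) and grey boxes regions touching a mock region (n = 7141 and 6961); boxes give the quartiles and whiskers the 5th and 95th percentiles. The red medians are 2.21 and 2.13 for fold and 222 and 243 bp for width.

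The rule turned on small distances for a few regions. Just inside it were a region in *E(Pc)*, an Enhancer of Polycomb, 5 bp from a mock region with a fold of 1.86, a region in *CG1812* at 9 bp with a fold of 1.81, and a region over *raptor* and *Mipp2* at 10 bp with a fold of 2.23. Just outside were regions in *CG11475*, which overlapped mock by 13 bp with a fold of 2.08, in *Glut4EF* and *CG46467*, by 16 bp with 1.91, and in *Traf4*, by 19 bp with 2.29. Over all 284, the median distance to the nearest mock region was 1379.5 bp. In 113 it was 1000 bp or less, in 166 it was 2000 bp or less, and 40 lay more than 10 kb away, the farthest at 132022 bp. None of the 44 called in both lists lay within 100 bp of a mock region, against 18 of the 240 called in 1 list.

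AGO2 KD lists, which the rule did not use, touched few of these regions, but few AGO2 KD regions lay outside mock at all. There were 3 such regions in AGO2 KD replicate 1 and 85 in replicate 2. Of these, 2 (66.7%) and 29 (34.1%) touched one of the 284 regions. AGO2 KD replicate 1 touched 2 of the 284 (0.704%), in *apt* and *skd*, and AGO2 KD replicate 2 touched 29 (10.2%). Over all merged LaminB KD regions, of which 7362 touched a mock region, the shares touched by AGO2 KD were 45.0% and 71.3%. Over those narrower than 400 bp they were 13.0% and 42.5%. Either AGO2 KD list touched 30 regions (10.6%), beside 71.4% of all merged LaminB KD regions, and 1 was touched by both. Of the 44 regions called in both LaminB KD lists, AGO2 KD replicate 1 touched none and replicate 2 touched 10 (22.7%). Those 10 lay in *beat-Ib*, *Cow*, *lncRNA:CR45472*, *lncRNA:CR45565*, *Pepck2*, *SK*, *stx* and *Gs2*, near *ben*, and in sequence with no gene at chr2R:6470319-6470543. The count for AGO2 KD comes almost wholly from 1 library, and the other has the fewest regions of the series. The part of list size in these shares was not tested.

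Each list was also set against the mock lists in the same way. LaminB KD libraries had 168 and 161 regions outside mock and AGO2 KD libraries had 3 and 85 (0.0728% and 1.30% of their regions). The LaminB KD mean was 164.5 ± 4.95 and the AGO2 KD mean 44.0 ± 58.0 (SD, n = 2 libraries each), a difference of 120.5 regions. An exact two-sided permutation test gave a p of 0.333, the smallest that 2 against 2 libraries allow. The LaminB KD counts are also the ones that the rule kept, so this test cannot decide whether the knockdowns differ. The counts of both groups were taken against the same mock lists. When 4000 top-scoring regions were taken from every KD list, the difference between the means was −3.5 regions. This cut was unequal, since the AGO2 KD lists held 4122 and 6534 regions and the LaminB KD lists 7309 and 7122. It drops the lower-scoring regions, where most LaminB KD regions outside mock lay. The counts left in each library are not given here, and the reason for the change was not tested.

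By gene feature, 121 of the 284 regions lay within 1500 bp of a transcription start site (promoter, 42.6%), 76 in exons (26.8%), 57 in introns (20.1%) and 30 between genes (10.6%). Of merged LaminB KD regions that touched mock, 75.6% were in promoters, 14.1% in exons, 7.55% in introns and 2.77% between genes. When these were limited to regions narrower than 400 bp, the shares were 58.7%, 21.2%, 15.2% and 4.96%, which is nearer to the regions outside mock but still with more promoters and fewer intergenic regions. The mock regions outside LaminB KD had 39.9% in promoters, 37.4% in exons, 19.1% in introns and 3.61% between genes. Of the 44 called in both LaminB KD lists, 22 were in promoters, 6 in exons, 9 in introns and 7 between genes. A start site itself lay inside 32 of the 284.

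**Figure D3:**
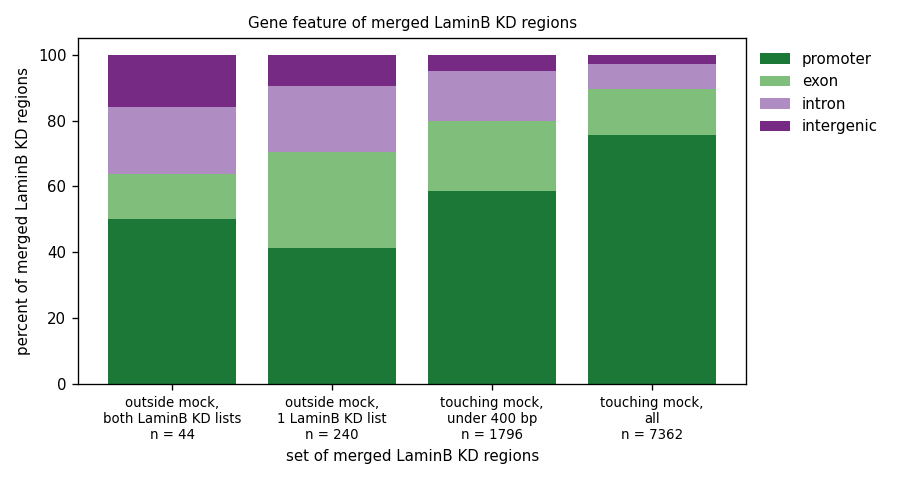
Percent of merged LaminB KD regions in promoters (within 1500 bp of a start site), exons, introns and between genes, as stacked bars. From left to right are regions outside mock called in both LaminB KD lists (n = 44) or in 1 (n = 240), then regions touching mock narrower than 400 bp (n = 1796) and of any width (n = 7362). The promoter part is 50.0%, 41.3%, 58.7% and 75.6% in that order.

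The genes that held the regions were also looked up in the mock lists. Of the 284, 248 overlapped a gene, 256 genes in all. In 202 regions an overlapped gene had a mock region elsewhere along it (71.1%), in 46 none had (16.2%), and 36 regions overlapped no gene (12.7%). Among the 44 called in both lists these counts were 26, 10 and 8. A region shared by genes was counted as soon as any of them had a mock region. The share of all genes with a mock region is not given here, so the 71.1% does not say whether the regions favoured such genes. Of 13968 protein-coding genes, 242 were touched by one of the regions (1.73%) and 37 by one called in both lists (0.265%). Genes covered in both LaminB KD libraries and in neither mock library numbered 12 (0.0859%), against 175 covered in both mock libraries and in neither LaminB KD library (1.25%).

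Among genes with no region in either mock list, *CG9312* had the widest new region, at chr3R:13765459-13767438. It was called over 60.2% and 66.8% of its 1980 bp in LaminB KD and was at 0 in both AGO2 KD and both mock lists, with folds of 2.32 in LaminB KD replicate 1 and of 1.99 and 2.13 for its 2 pieces in replicate 2. The body of *CG9312* itself was covered over 88.4% and 51.2% in LaminB KD. The next gene along, *Cht5*, a chitinase, held a region outside mock of 170 bp from LaminB KD replicate 2, at chr3R:13768364-13768533. In LaminB KD replicate 1 this place was also called, as part of a longer region that reached a mock region beyond the gene. The body of *Cht5* was covered over 81.6% and 50.4% in LaminB KD and 0% in the other 4 lists. Both sat in 1 stretch of 55414 bp with no mock region.

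Other genes with no mock region were covered to differing extents. *CG40198* was covered over 37.6% and 9.23% in LaminB KD and was at 0 in AGO2 KD and in mock. *lncRNA:CR45472* was covered over 33.7% and 21.9% in LaminB KD, 0% and 25.3% in AGO2 KD, and 0% in mock, and *lncRNA:CR45565* over 37.6% and 36.5% in LaminB KD, 0% and 21.6% in AGO2 KD, and 0% in mock. *Lcch3*, a subunit of a GABA-gated ion channel, was covered over 13.1% and 9.99% in LaminB KD by a region that it shares with the neighbouring *Ranbp16*, a gene on the opposite strand that had mock regions. *cpx*, whose product complexin clamps synaptic vesicle fusion, was covered over 0.923% and 1.30% in LaminB KD, *ogre*, an innexin of gap junctions, over 0.966% and 0.881%, and *CG31183* over 0.924% and 0.897%. All 3 were at 0 in AGO2 KD and in mock. *SK*, a calcium-activated potassium channel, held the region with the highest −log10 q among the 161 outside mock in LaminB KD replicate 2, 7.83, beside 4.81 in replicate 1, and was named after its values were seen. Its body was covered over 0.213% and 0.0960% in LaminB KD, 0% and 0.191% in AGO2 KD, and 0% in both mock lists. *Pepck2*, which encodes a phosphoenolpyruvate carboxykinase, was likewise called in AGO2 KD replicate 2, at 2.16%, beside 2.70% and 1.78% in LaminB KD and 0% in both mock lists. Of 17 genes of all kinds covered in both LaminB KD and neither mock list, 13 held one of the 284 regions. Among the others, *lncRNA:CR32368*, was covered over 36.6% and 58.3% in LaminB KD by regions that touched mock outside the gene, and was at 0 in AGO2 KD.

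Transcription factor genes held regions at differing distances from mock regions. *twi*, which directs mesoderm formation, and *CG42741* shared a region of 390 bp at chr2R:23018613-23019002, 19572 bp from the nearest mock region, called over 85.9% and 91.5% of its length in LaminB KD with folds of 2.22 and 2.88. The *Atf3* region, in an intron of this bZIP factor gene, lay 961 bp from a mock region and had folds of 2.38 and 2.17. Neither of these regions was touched in AGO2 KD.

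Signalling and secreted factors gave both near and far examples. The region of *Cow*, which encodes a carrier of the Wingless ligand, was 728 bp wide, lay in an intron 12185 bp from mock, and was called over 89.4% and 100% in LaminB KD, 0% and 87.8% in AGO2 KD, and 0% in mock. *shf*, whose product spreads Hedgehog, held an exonic region of 882 bp at 821 bp from mock, with folds of 2.18 and 2.05. *PlexA*, a semaphorin receptor and the sole chromosome 4 gene among the 284 regions, was covered over 5.17% and 3.72% in LaminB KD, 0% in both AGO2 KD lists, and 9.69% and 1.56% in mock. *beat-Ib*, of the Beaten path family of axon guidance proteins, held a region of 593 bp that lay 38544 bp from mock, the farthest of the 44, in a mock-free stretch of 219159 bp that held 3 of the 284 regions. It was called over 100% and 88.5% in LaminB KD, 0% and 64.9% in AGO2 KD, and 0% in mock.

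Several regions lay within genes that were covered widely in mock. *Dronc*, an initiator caspase of apoptosis, was covered over 41.2% and 41.8% of its body in LaminB KD, 14.8% and 33.7% in AGO2 KD, and 34.1% and 31.2% in mock. Both LaminB KD values were above both mock values, and the new region lay 618 bp from a mock region. *Pi3K21B*, the regulatory subunit of phosphoinositide 3-kinase, was covered over 43.9% and 44.4% in LaminB KD, 8.69% and 9.25% in AGO2 KD, and 31.3% and 37.9% in mock. *AGO2* was covered over 59.4% and 58.2% in LaminB KD, 4.39% and 18.4% in AGO2 KD, and 55.7% and 33.2% in mock, and its new region of 251 bp lay 609 bp from a mock region. At *AGO2* the lower LaminB KD value, 58.2%, was close to the higher mock value, 55.7%. These 3 genes were chosen by the presence of a LaminB KD region outside mock and so are described without a test. How often LaminB KD values lay above mock values over all genes is not given here.

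At other genes the LaminB KD values were not above mock. *nod*, a kinesin-like protein of chromosome segregation, was covered over 30.5% and 24.9% in LaminB KD, 0% and 19.3% in AGO2 KD, and 42.4% and 50.1% in mock, although it held a region outside mock of 232 bp that it shares with *pkm* on the opposite strand. *Gmap*, a Golgi protein, was covered over 45.9% and 39.6% in LaminB KD, 5.10% and 19.2% in AGO2 KD, and 54.4% and 44.1% in mock. *Patronin*, which protects microtubule minus ends, was covered over 10.8% and 12.7% in LaminB KD, 2.03% and 3.40% in AGO2 KD, and 10.8% and 12.1% in mock. *stx* was covered over 2.90% and 2.46% in LaminB KD, 1.21% and 3.21% in AGO2 KD, and 2.69% and 2.54% in mock, and *Pgant7*, a glycosyltransferase, over 13.7% and 10.5% in LaminB KD, 3.76% and 6.75% in AGO2 KD, and 10.7% and 11.4% in mock. At these 5 genes a region outside mock stood beside gene coverage that was not higher in both LaminB KD libraries than in both mock libraries.

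The far end of *lncRNA:Hsromega*, a nuclear long non-coding RNA gene induced by heat shock, held a region of 488 bp at chr3R:21317199-21317686, 14373 bp from the nearest mock region, with folds of 2.43 and 2.91. The neighbouring gene *aus*, on the opposite strand, held a region at chr3R:21319122-21319455, with folds of 2.23 and 2.52. Both regions were called in both LaminB KD lists and in neither AGO2 KD list, and they lay in 1 mock-free stretch of 46100 bp. *lncRNA:Hsromega* as a whole was covered over 18.6% and 21.6% in LaminB KD, 14.2% and 15.4% in AGO2 KD, and 20.1% and 17.3% in mock. The region of *lncRNA:CR45565* was called over 91.9% and 89.3% in LaminB KD, 0% and 52.8% in AGO2 KD, and 0% in mock.

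Among regions with no gene, the one nearest *Ran-like*, 1877 bp away, was 751 bp wide and was called over 93.2% and 95.6% in LaminB KD with folds of 2.21 and 2.39. The region nearest *Tif-IA* lay in pericentromeric sequence and overlapped an annotated gypsy8 element, with folds of 2.41 and 1.96. The region nearest *lncRNA:CR44206* had folds of 2.32 and 2.76, and none of these 3 was called in AGO2 KD. The region nearest *ben*, 1041 bp away, was called over 100% and 50.0% in LaminB KD and 0% and 100% in AGO2 KD.

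**Figure D4:**
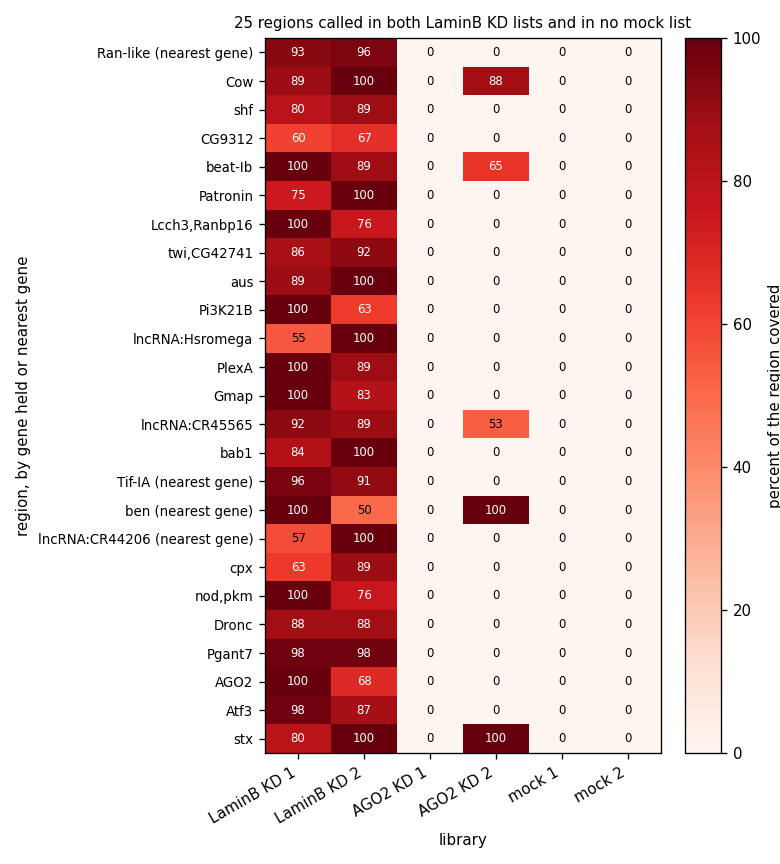
Percent of each of 25 regions covered by called regions in each list, for the 25 with the longest stretch called in both LaminB KD lists. Columns are the 2 LaminB KD, 2 AGO2 KD and 2 mock libraries, rows are the regions by the gene they overlap or lie nearest to, and darker red is a higher percent. Both mock columns are at 0 by the rule, AGO2 KD replicate 1 is at 0 throughout, and AGO2 KD replicate 2 is above 0 in *Cow*, *beat-Ib*, *lncRNA:CR45565*, *stx* and the region near *ben*.

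The 5 regions with the highest fold in each LaminB KD list held 5 that were called in both lists. In LaminB KD replicate 1 the highest lay in *CG31183* (3.30), *ogre* (3.18), *Naam* (3.17), *Eip75B* (3.04) and *CG32944* (2.97). Of these, *CG31183*, *ogre* and *CG32944* were also called in replicate 2, at folds of 2.34, 2.75 and 1.98. In LaminB KD replicate 2 the highest lay in *Lamp1* (3.37), *hlk* (3.09), *PGRP-LC* (3.05), *CG34355* (2.98) and *Pgant7* (2.98), of which *CG34355* and *Pgant7* were in both lists. *Naam* encodes a nicotinamidase, *Eip75B* a nuclear receptor induced by ecdysone, *Lamp1* a lysosomal membrane protein and *PGRP-LC* a receptor for bacterial peptidoglycan. Even the highest of these ranked 2029th by fold among the regions of replicate 1 and 1630th among those of replicate 2.

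Across chromosomes, 65 of the 284 regions lay on X, 62 on 3L, 58 on 3R, 52 on 2R, 46 on 2L, 1 on chromosome 4 and none on Y. The share on X was 22.9%, beside 18.5% of LaminB KD regions that touched mock and 17.5% of mock-free bases, and the share on 3R was 20.4%, beside 22.9% and 23.9%. Pericentromeric sequence was taken by rounded limits on dm6 (2L from 22 Mb, 2R up to 6 Mb, 3L from 23 Mb, 3R up to 5 Mb and X from 22 Mb). With chromosome 4, 20 regions lay in such sequence (7.04%), while 6.71% of LaminB KD regions that touched mock did, and such sequence makes up 16.6% of all mock-free bases. Among the 44 called in both lists the count was 8 (18.2%), and among the 240 called in 1 list it was 12 (5.00%). The 8 lay in *lncRNA:CR45472*, *CG40198*, *cpx*, *CG32944* and *PlexA*, and 3 in sequence with no gene. Moving the limits by 1 Mb changed the share of the 284 to 3.17% or 12.3%. Among the 8, the regions in *lncRNA:CR45472*, *CG40198*, *cpx* and *CG32944* and the one nearest *Tif-IA* lay less than 1 Mb inside the limits. The 18.2% thus rests on where the limits were set, and the share of the 44 under moved limits is not given here.

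The length of the stretch between neighbouring mock regions served as a measure of the domain that held each region. Maps of lamina-associated domains were not used here. The 284 regions lay in 271 mock-free stretches with a median length of 9954.5 bp for the stretch around a region. Stretches of 20 kb or more held 99 of them (34.9%), of 50 kb or more 53 (18.7%) and of 100 kb or more 26 (9.15%). In the genome, such stretches hold 78.3%, 60.3% and 38.9% of all mock-free bases, so a smaller share of the regions than of the mock-free bases lay in long stretches. Of the 44 called in both lists, 22 lay in stretches of 20 kb or more (50.0%) and 2 in stretches of 100 kb or more. For mock regions outside LaminB KD, measured against stretches free of LaminB KD regions, 31.0% lay in stretches of 20 kb or more. In 12 stretches there were 2 or more of the 284 regions, 25 regions in all.

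**Figure D5:**
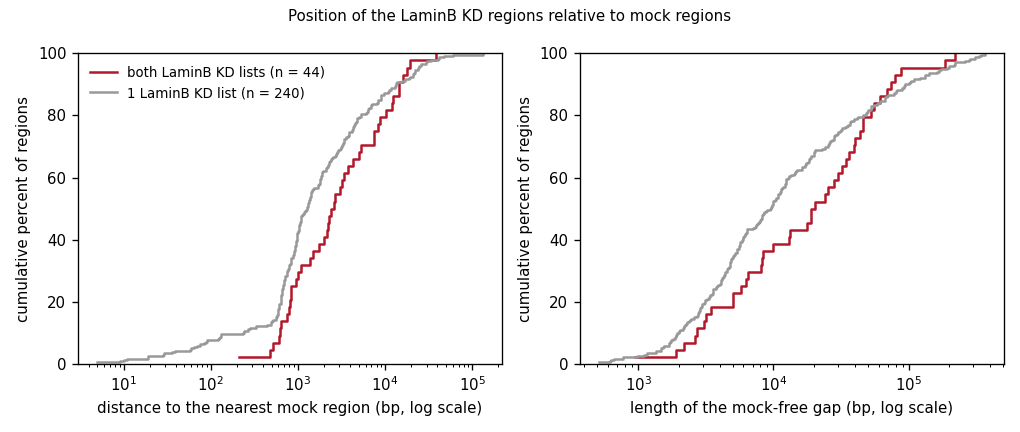
Cumulative percent of regions outside mock by distance to the nearest mock region (left) and by length of the mock-free stretch around them (right), both in bp on log scales. Red lines are the 44 regions called in both LaminB KD lists and grey lines the 240 called in 1. The median distance is 2524.5 bp for the red line and 1272.5 bp for the grey one, and the median stretch is 19575.5 and 9524 bp.

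The gene groups that were counted held few of the regions. Of 127 chitin and cuticle genes, 1 held a region (*Cht5*), and of 230 genes of chemoreceptors and odorant-binding proteins, 1 did (*Ir41a*), beside 1.73% of all protein-coding genes. None of 35 testis genes, 14 antimicrobial peptide genes, 9 nuclear envelope genes or 9 genes of heterochromatin proteins held one. Of the 13 hemocyte marker genes, *ush* did, in 1 LaminB KD list.

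Over whole regions the median GC content was 52.1% in the 284, 51.0% in regions touching mock that were narrower than 400 bp and 48.7% in all regions touching mock. In the central 147 bp, which gives every region the same width, it was 51.7%, 52.4% and 49.7%, so the order against the narrow regions turned, and it was 49.7% in the 44 called in both lists. Of the 284, 7 touched an annotated transposable element (2.46%), beside 2.59% of regions that touched mock, and 4 lay in one over 50% or more of their length. In the central 147 bp, counting a motif or its reverse complement, GAGAG was found in 23.6% of the 284 regions and in 29.0% of regions touching mock narrower than 400 bp. CACACA was found in 18.7% and 15.0%, CAGCAG in 23.9% and 19.3%, TATAAA in 4.23% and 6.68%, and CGATA in 14.1% and 20.1%. Over the 44 called in both lists, CACACA and CAGCAG were each found in 11.4%. The letters are a description of these windows and not evidence of a bound factor.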

How the data were processed

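S2 Pol II ChIP-seq regions of 6 IP libraries were used, 2 each of LaminB KD, AGO2 KD and mock. The authors trimmed reads with cutadapt 1.10, aligned them to dm6 with bowtie2, kept reads with a mapping quality of 20 or more, removed duplicates with Picard 2.11.0 and called broad regions per replicate against input with MACS2 2.1.1.20160309. The versions are those of the submitters' processing notes, and the methods of the study give later versions of cutadapt and Picard. The 6 inputs entered through these calls, and which of them entered each call is not given in the sources used here. The score deposited by the authors follows the −log10 q value, the fold deposited by the authors is a ratio of IP over the background expected from input, and the −log10 p-value and −log10 q-value deposited by the authors are, like the fold, averages over each region.

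Lists hold called regions with no read counts, so depth is unknown, no counting interval can be given, and absence of a call is not absence of Pol II. A shallower library calls fewer regions. The read-based test of the study could not be run.

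Starts were converted to positions counted from 1. Regions touched when they shared 1 bp. Gene models came from Ensembl release 115 (BDGP 6.54, dm6 coordinates) and sequence from the RefSeq dm6 genome. Sequences are printed for 4 regions, and 1 other item is not reported here. Of the markers of other cells, *nos* was not matched by its symbol. Precedence was promoter, exon, intron, intergenic. Regions named by rule were the 25 with the longest stretch called in both LaminB KD lists, the 5 of highest fold per list, and 3 on either side of the 1 bp rule, with gene groups counted from symbol lists. Other genes, among them *Cht5*, *CG40198*, *lncRNA:CR45472*, *lncRNA:CR32368*, *Pepck2*, *SK*, *Ric* and *Gs2*, fell outside this rule for regions and were named for their values in the lists. The regions, the lists and the tests were chosen with earlier results of these data known. Groups of 2 libraries were compared by an exact permutation test. Scripts (Python 3.11.15, pandas 2.3.3, numpy 2.4.6, scipy 1.17.1) were tested on simulated lists. Alternatives were stricter q, top-scoring parts of each list, wider distances, other promoter and domain limits, and leaving out each library.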

Additional observations from a re-analysis of the deposited data

Results flagged for a closer look

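Of the 40 genes that hold a region outside mock called in both LaminB KD lists, 6 are listed here. At these 6, both LaminB KD libraries covered more of the gene than both mock libraries, while both AGO2 KD libraries covered less. At *nod* and *Gmap*, also among the 40, mean coverage was below mock in both knockdowns. The share of all genes with the listed pattern is not given here. How the knockdowns differ here was not tested, and the genes were selected for a LaminB KD region absent from mock. In *AGO2*, coverage differed from mock by 14.3 percentage points in LaminB KD and by −33.1 points in AGO2 KD. In *Pi3K21B* the differences were 9.58 points in LaminB KD and −25.6 points in AGO2 KD. In *Ric*, a small GTPase of the Ras family, they were 6.73 points in LaminB KD and −9.23 points in AGO2 KD. In *Gs2*, a glutamine synthetase, they were 2.35 points in LaminB KD and −6.82 points in AGO2 KD. In *CG32944* they were 1.26 points in LaminB KD and −5.62 points in AGO2 KD. In *twi* they were 0.514 points in LaminB KD and −0.121 points in AGO2 KD. The AGO2 KD lists held fewer regions than every other list, and the part of this in the negative values was not tested.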

How the results depend on the processing

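The number of regions outside mock depended most on which regions entered. Of 284, 5 were left when the top-scoring 50% of each LaminB KD list was set against whole mock lists, 154 with the top 50% of every list and 118 when a mock region within 2000 bp counted as touching. Leaving out 1 library gave 161 to 552, with 161 without LaminB KD replicate 1, 168 without LaminB KD replicate 2, 537 without mock replicate 1 and 552 without mock replicate 2. The 44 called in both lists became 0, 31 and 27 under the same 3 settings, and 93 to 102 without 1 mock library. At a −log10 q of 2 or more, 200 and 30 were left.

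Limited to the 44, the share touched by AGO2 KD was 22.7%, in promoters 50.0%, between genes 15.9%, in pericentromeric or chromosome 4 sequence 18.2% and in mock-free stretches of 20 kb or more 50.0%. Over the 284, 22.2% were in promoters and 26.1% in introns with promoters of 500 bp. Of the 200 left at a −log10 q of 2 or more, 25.5% were in introns. Over the 284, moving pericentromeric limits by 1 Mb gave 3.17% towards and 12.3% away from the centromere. Stretches of 50 kb or more held 18.7% of the 284. Leaving out 1 library gave 0.704% to 15.6% touched by AGO2 KD, the lowest without AGO2 KD replicate 2, 15.5% to 25.0% in introns, 7.07% to 11.8% between genes and 29.2% to 39.8% in stretches of 20 kb or more.

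The per-library difference of 120.5 regions was −3.5 with 4000 top-scoring regions per list, by construction over fewer regions, and ran from 79.5 (without AGO2 KD replicate 1) to 161.5 (without AGO2 KD replicate 2) when 1 library was left out. The held-out difference of −15.7 points was −8.31 for LaminB KD replicate 2 outside mock replicate 2. Of the 40 genes holding a region called in both lists, 6 had 500 bp or more covered in both. The causes of the other changes were not tested. Differences between replicates 1 and 2 in the covered share of each region were hardly correlated between groups. The r was −0.0131 between LaminB KD and AGO2 KD and 0.0714 between LaminB KD and mock, over 7795 regions. The 2 AGO2 KD lists differ in size (4122 and 6534 regions), so a low r cannot show whether same-numbered libraries were paired. With the replicate block the per-library difference between LaminB KD and AGO2 KD was 120.5, from 165 and 76. Its exact sign-flip p was 0.5, the smallest possible, so this test cannot decide the question either.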
